A study of Homo sapiens with 7 samples.

Results

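Kasumi-1 is an established myeloblast line from peripheral blood that carries the t(8;21) translocation and makes AML1-ETO, a fusion of the DNA-binding part of AML1 with ETO. In ChIP-seq, chromatin is pulled down with an antibody and its DNA is sequenced, which shows where a protein or a histone mark sits. Peaks were mapped for AML1, for AML1-ETO (with an antibody to ETO), for the co-repressor N-CoR, for the acetyltransferase p300 and for trimethylated lysine 4 of histone H3 (H3K4me3). All of these libraries came from untreated cells of the same line, so the comparison is between places in 1 genome, not between conditions. The H3K4me3 list held 19631 peaks on the nuclear chromosomes. Of these, 7954 had no summit of any of the 4 proteins within 1000 bp of their own summit, 40.5% (exact Clopper-Pearson 95% interval 39.8 to 41.2%). They were chosen by the measured positions of the summits alone. These are called protein-free peaks below, and the other 11677 are called occupied peaks. The replicates had been pooled into a single list for each antibody. No spread between replicates can therefore be given, the intervals cover counting error over peaks only, and no p-value is given, since peaks of 1 list are not replicates. The lists hold positions without read counts or scores, and a protein-free peak is one where no summit was listed, which does not show that the proteins were absent. The lists hold only peaks past the p threshold that the authors set in the peak caller, so the protein-free share depends on that threshold.

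H3K4me3 is laid down by the SET1 and MLL complexes around the start sites of transcribed and poised genes, and its peaks commonly cover CpG islands. Promoters of widely used genes are often rich in CpG, whereas promoters of tissue-specific genes are more often poor in it. AML1, also called Runx1, binds a short Runx sequence and is needed for definitive blood formation. N-CoR carries histone deacetylases to its targets, and p300 acetylates histones at enhancers and promoters.

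A protein-free peak at a start of low CpG content is shown by its reference sequence from GRCh37. It was taken for that content after the values were seen, and most protein-free promoters, as given further on, are CpG-rich. ZSCAN31, which encodes a zinc finger protein with a SCAN domain, has the 250 bases just before the annotated start nearest to peak 10633 at chr6:28324049-28324298 (minus strand). They hold no annotated exon and are given on the strand of the gene, with every CG in capitals.
ZSCAN31: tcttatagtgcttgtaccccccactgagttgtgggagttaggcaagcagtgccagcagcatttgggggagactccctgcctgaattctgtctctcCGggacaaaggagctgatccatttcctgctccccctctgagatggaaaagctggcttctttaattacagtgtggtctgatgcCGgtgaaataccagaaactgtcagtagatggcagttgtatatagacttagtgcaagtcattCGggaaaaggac
These bases held 3 CG pairs. The H3K4me3 summit lay 160 bp downstream of the start, and the nearest protein summit was 6182 bp away. Of the 3 H3K4me3 summits near annotated starts of ZSCAN31 this was the only protein-free one, with a protein as close as 167 bp to the others, so the gene itself is not counted as protein-free below.

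The distance to the nearest protein summit chose the members and is given as a description. Its median was 24783 bp, with quartiles of 8108 and 65530 bp. No protein summit lay within 2000 bp of 90.7% of the protein-free peaks, within 10000 bp of 71.5% or within 100000 bp of 16.3%. The median distance to a single protein was 42702.5 bp for AML1-ETO, 61797 bp for p300, 62901 bp for AML1 and 83457.5 bp for N-CoR. Just inside the limit stood peak 11835 at FSTL3 (1002 bp from p300), peak 5424 at CLCN2 (1003 bp from p300) and peak 11220 at MFSD2A (1003 bp from AML1). Just outside stood peaks at TBX6 (1000 bp from AML1), TYW1 (1000 bp from p300) and the lncRNA ENSG00000287564 (1000 bp from AML1-ETO). Among the occupied peaks, p300 was the protein most often near, at 79.5%, followed by AML1-ETO at 47.8%, AML1 at 34.8% and N-CoR at 26.4%.

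The peak furthest from any protein was the only one on chromosome Y, number 16747, near the start of a processed pseudogene and 7665985 bp away. Chromosome Y held 0 AML1, 2 AML1-ETO, 1 N-CoR and 3 p300 summits, so this distance was measured on a chromosome with very few listed summits. Next came a pair of summits at GLIDR, a long non-coding RNA gene on chromosome 9, at 3165086 and 3165768 bp. PCDH11X, a protocadherin gene on chromosome X, had a summit 543 bp downstream of its start and 2963678 bp from any protein. The closest protein to the PCDH11X summit was AML1, and p300 was 9611190 bp away.

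The share that was protein-free climbed steadily along the H3K4me3 list. The peaks are numbered from 1 to 19632 and not in genome order, and what the numbering follows is not given in the sources used here. In the first of 10 equal parts of the list, 7.13% of peaks (6.03 to 8.36%) were protein-free. The share rose in every following part, to 39.5% (37.4 to 41.7%) in the fifth and 66.3% (64.2 to 68.4%) in the last. The median peak number was 13310 for protein-free and 7021 for occupied peaks. Promoter and CpG content changed along the list as well, so differences in shares of peaks between the kinds of peak are given over all peaks and, for the main ones, as the weighted mean within the 10 parts of the list. Medians and bins are over all peaks unless stated.

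**Figure D1:**
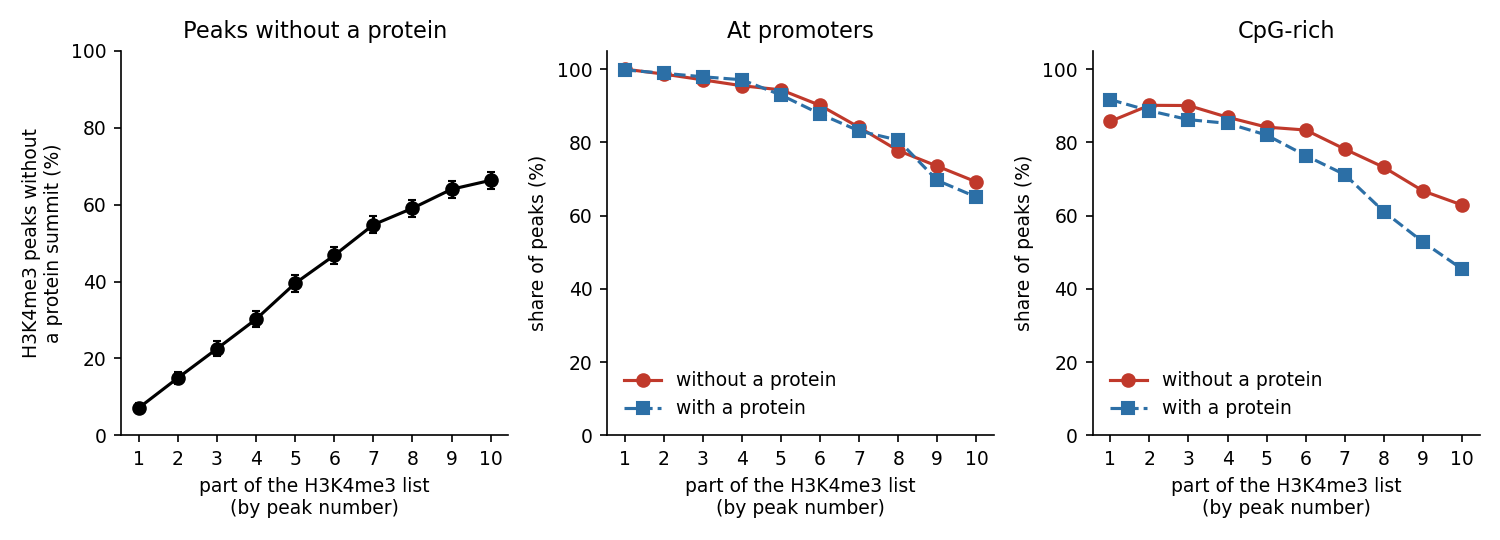
The horizontal axes give the part of the H3K4me3 list (1 to 10, by peak number), and the vertical axes give the share of peaks in percent, with exact 95% intervals in the left panel. The protein-free share climbed from 7.13 to 66.3%; promoter shares of protein-free (circles) and occupied peaks (squares) stayed close together, and CpG-rich shares separated in the later parts.

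Most protein-free peaks lay at promoters. A start of any GENCODE gene stood within 1000 bp of 6612 of them, 83.1% (82.3 to 83.9%), against 90.9% of occupied peaks (90.4 to 91.4%). The difference was -7.80 percentage points (Newcombe 95% interval -8.78 to -6.84), and its sign was the same on 22 of the 23 chromosomes that have both kinds of peak. Within the 10 parts of the list it was 0.89 points (-0.15 to 1.93), with the protein-free share higher in 6 of 10. The lower promoter share over all peaks was thus not seen between peaks of like list position. Outside promoters, 6.88% of protein-free peaks lay in introns, 2.07% in exons, 3.16% within 10 kb upstream of a gene and 4.76% between genes. For occupied peaks these shares were 3.73, 1.15, 1.92 and 2.28%. The shares were not compared within the parts of the list.

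By the class of the gene whose start was near, protein-coding genes accounted for 74.6% of protein-free peaks (73.6 to 75.6%) and 84.8% of occupied ones. Genes of long non-coding RNAs alone accounted for 7.08% (6.52 to 7.66%) against 5.52% (5.12 to 5.95%), and pseudogenes for 0.99% (0.79 to 1.24%) against 0.36% (0.26 to 0.49%). Small RNA and other genes accounted for 0.44% against 0.27%. No start stood within 1000 bp of 16.9%, against 9.07% of occupied peaks. Counted within the 10 parts of the list, the coding promoter share was higher for protein-free peaks by 1.48 points (0.26 to 2.70). The lncRNA share turned there to -0.85 points (-1.64 to -0.07), and the pseudogene share was 0.34 points higher (0.10 to 0.58), in 5 of 10 parts.

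The H3K4me3 summit of a protein-free peak typically stood just downstream of a start. The median distance to the nearest start was 258 bp (252 to 265 bp) and 229 bp (226 to 233 bp) for occupied peaks. Among promoter peaks both medians were 212 bp, and the summit was downstream of the start in 67.7% of protein-free peaks (66.6 to 68.8%) and 72.2% of occupied ones (71.3 to 73.0%). Within the parts of the list this direction turned, with a downstream summit more frequent among protein-free peaks by 6.50 points (4.98 to 8.02), in 8 of 10. The bin from 200 to 300 bp downstream held 14.2% of protein-free and 19.9% of occupied promoter peaks. The bin from 300 to 200 bp upstream held 7.30 and 4.40%.

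**Figure D2:**
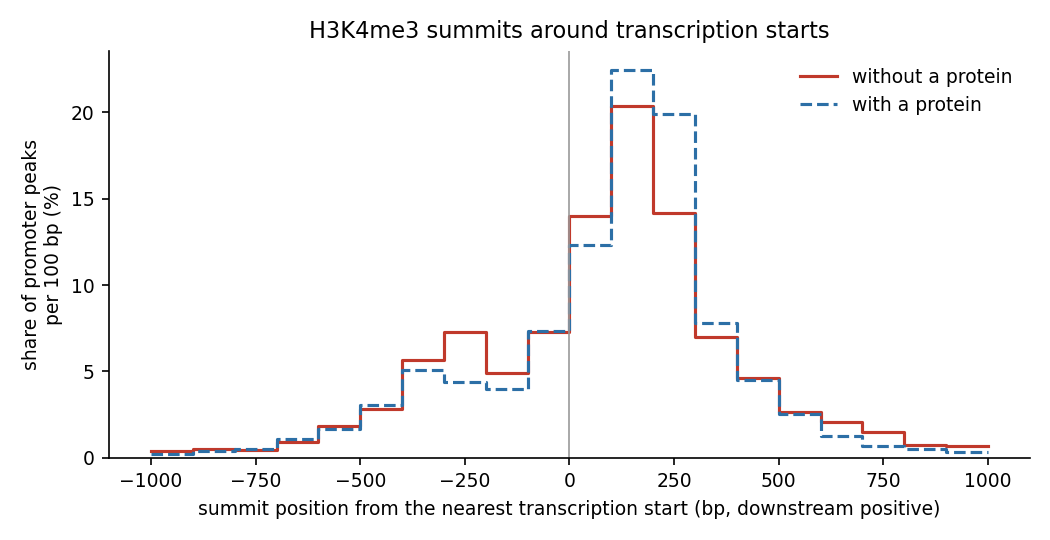
The horizontal axis gives the position of the H3K4me3 summit from the nearest transcription start in bp, downstream positive, and the vertical axis gives the share of promoter peaks in each 100 bp bin. Both kinds of peak were most frequent between 100 and 200 bp downstream, at 20.4% for protein-free (solid) and 22.5% for occupied peaks (dashed).

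Promoters with starts on both strands, where a pair of genes is read in opposite directions, were less frequent among the protein-free peaks. Starts on both strands stood within 1000 bp of 24.9% of protein-free promoter peaks (23.9 to 26.0%) and 36.5% of occupied ones (35.6 to 37.5%), a difference of -11.65 points (-13.03 to -10.25). Within the parts of the list the difference was -5.18 points (-6.69 to -3.68), with the protein-free share lower in 10 of 10.

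The protein-free peaks with the lowest numbers at coding promoters included those of CDC23 (number 39), ZNF169 (71), STX12 (85), XAB2 (135), NDUFV1 (158), COX7C (175), ERGIC2 (190), PES1 (217) and GMPPB (233). CDC23 encodes a subunit of the anaphase-promoting complex, and NDUFV1 and COX7C encode subunits of respiratory complexes I and IV. STX12 and ERGIC2 serve membrane traffic, XAB2 splicing and repair, PES1 ribosome assembly and GMPPB the supply of activated mannose. In all 9 the summit stood between 102 and 258 bp downstream of the start. At COX7C the nearest protein summit was 463398 bp away and the next H3K4me3 summit 650066 bp away, so this marked promoter stood alone in a long stretch without any listed peak. At NDUFV1 all 4 proteins had summits between 6620 and 6976 bp away.

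Genes were then counted once for each entry, so a symbol with more than 1 entry counts more than once, as given below for POLR2J3. A gene was called marked when an H3K4me3 summit lay within 1000 bp of one of its starts, and protein-free when none of those summits had a protein near. Of 12565 marked protein-coding genes 3961 were protein-free, and the background is 31.5%. Of the 17077 marked genes of any class, 32.8% were protein-free. Marked pseudogenes were protein-free in 54.0% (48.7 to 59.2%), lncRNA genes in 34.8% (33.2 to 36.3%). Their median lowest peak numbers were 11581 and 7368, in parts of the list where 55.9 and 29.4% of coding genes were protein-free. These 2 classes were not set beside coding genes at the same list positions. The share among coding genes rose from 5.76% where the lowest-numbered summit was in the first part of the list to 83.9% in the last, so each gene list is set beside all marked coding genes at the same list positions. The lists are families taken by gene symbol, and genes that share a promoter share a peak.

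Few genes of the ribosome and the spliceosome were protein-free. None of the 81 marked genes for cytosolic ribosomal proteins was protein-free (0 to 4.45%), where coding genes at the same list positions were in 10.7%. None of the 33 marked spliceosome genes was (0 to 10.6%), against 13.6%. Of the genes for mitochondrial ribosomal proteins 3 of 77 were, 3.90% (0.81 to 11.0%) against 16.5%: MRPS21, MRPL57 and MRPL41. A single aminoacyl-tRNA synthetase gene of 35 was protein-free, LARS1, which charges leucine tRNA, with its nearest protein 20633 bp away. The value at the same list positions, 12.4%, lay within that list's interval (0.07 to 14.9%). Host genes of small nucleolar RNAs gave 1 of 26, SNHG28, and their value of 11.9% lay within the interval as well (0.10 to 19.6%). The ribosomal, spliceosome and mitochondrial ribosomal lists stood below their list-position value by more than the counting interval.

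Other housekeeping groups stood nearer to the value for their list position. Respiratory chain subunits were protein-free in 13 of 79, 16.5% (9.06 to 26.5%) against 12.4%, led by NDUFV1, COX7C, UQCRB and NDUFA5. Proteasome subunits gave 6 of 46, 13.0% against 14.1%, translation initiation factors and their regulators 5 of 49 against 14.4%, and chaperones 11 of 63, 17.5% against 21.4%. RNA polymerase subunits gave 8 of 34, 23.5% against 23.1%. In that list POLR2J3 was entered more than once, each time with the same peak, number 12805. Counting it once would lower the share, and the small excess over 23.1% rests on this repeat. General transcription factors gave 8 of 44, 18.2% against 21.1%. TBP, the TATA-binding protein, was among these 8, with its nearest protein summit 1315 bp away. Mediator subunits gave 8 of 30, 26.7% (12.3 to 45.9%) against 19.3%. DNA repair genes gave 17 of 56, 30.4% (18.8 to 44.1%) against 23.1%, including the ligase gene LIG1 and the nuclease gene MRE11. Cell cycle genes, listed together with kinesin genes by their KIF symbols, gave 31 of 106, 29.2% (20.8 to 38.9%) against 23.3%, including CDC45 and CCNB2. C2H2 zinc finger genes, the list with most marked genes, gave 144 of 442, 32.6% (28.2 to 37.2%) against 28.6%, solute carriers 78 of 200, 39.0% against 34.6%, and RAB and related small GTPases 24 of 90, 26.7% against 26.6%. Ubiquitin-conjugating enzymes gave 9 of 33, 27.3% against 21.5%. In each of these groups the interval of the share held the value for the same list positions.

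Gene families best known from the nervous system, muscle and embryonic patterning were marked less often than coding genes at large (62.3%). Of 214 genes for ion channels and transmitter receptors 59 were marked, and 44 of the 59 were protein-free, 74.6% (61.6 to 85.0%). Of 181 genes for developmental transcription factors other than HOX genes 65 were marked, and 41 were protein-free, 63.1% (50.2 to 74.7%), among them FOXP4, TBX4 and PITX1, the last with 3 summits and no protein within 128641 bp. Coding genes at the same late list positions gave 66.3 and 56.1%, within these intervals. Of the 10 marked HOX genes 4 were protein-free, HOXA9, HOXA11, HOXA13 and HOXB6, against 48.8% at the same list positions. No keratin gene of 55 was marked, and of 414 olfactory receptor genes 2 were marked, both protein-free, where the same list positions gave 69.5%. MicroRNA genes gave 36 of 123, 29.3% (21.4 to 38.1%) against 37.3%.

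Among the lists with at least 20 marked genes, the histone genes stood furthest from the value for their list position. Of 58 marked genes for core and linker histones 8 were protein-free, 13.8% (6.15 to 25.4%), whereas coding genes at the same positions were in 59.4%. Their median lowest peak number, 12782, was in the later part of the list, unlike that of the ribosomal genes, 1080. The 8 were H4C16, H4C11, H2AC19, H1-3, H2BC5, H3C6, and the pair H2BC18 and H3C13, which shared peak 15413. Counted over distinct peaks, 8 of 68 at histone genes were protein-free, 11.8%. Histone genes of a class are near-identical copies, and how reads that match several copies were placed is not given in the sources used here.

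Genes of the myeloid lineage gave 6 protein-free of 25 marked, 24.0% (9.36 to 45.1%), with 43.3% at the same list positions. They were MPO, MYB, PRTN3, CD34, CD14 and ITGAM. MYB, a transcription factor of blood progenitors, had 4 H3K4me3 summits, none with a protein within 5880 bp. MPO and PRTN3 encode proteins of neutrophil granules. At MPO the nearest protein summit was 1005 bp away, just past the limit, and at PRTN3 it was 3020 bp away. CD34, a marker of progenitors, CD14, a monocyte receptor, and ITGAM, the integrin subunit CD11b, had late summits, numbers 14682, 19024 and 18017. The genes for the myeloid transcription factors SPI1, CEBPA, CEBPB, CEBPD, CEBPE and GFI1 all had a protein near, as had KIT, CSF3R, AZU1 and ELANE. Lymphoid genes gave 5 of 11, 45.5% (16.7 to 76.6%) against 54.6% at the same list positions, RAG2, PAX5, TCF7 and CD79B among them. These markers were 25 of 51 and 11 of 38 genes marked, respectively.

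**Figure D3:**
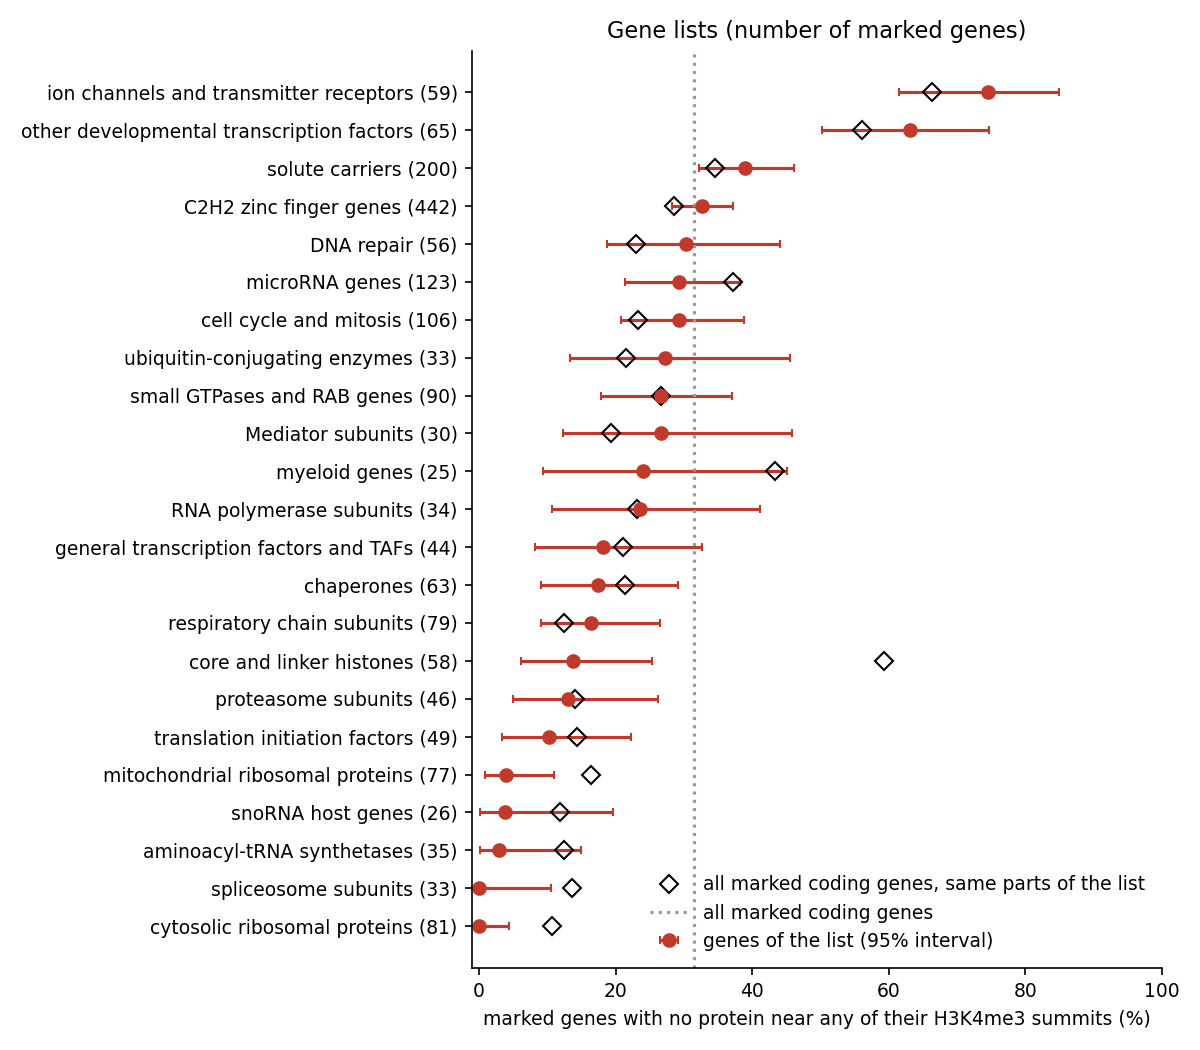
The horizontal axis gives the share in percent of marked genes whose H3K4me3 summits were all protein-free, for lists with at least 20 marked genes (numbers in parentheses). Points with bars are lists with exact 95% intervals, diamonds are all marked coding genes at the same parts of the list, and the dotted line is the background of 31.5%; the histone genes stand furthest from their diamond.

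CpG content depended on what was held constant. CpG-rich was taken as a ratio of observed to expected CpG of at least 0.6 with at least 50% G and C in the 1000 bp around the summit. It held for 76.2% of protein-free peaks (75.2 to 77.1%) and 78.8% of occupied peaks (78.0 to 79.5%), a difference of -2.57 points (-3.77 to -1.38). Within the parts of the list the direction turned, to 7.39 points (6.10 to 8.68), with the protein-free share higher in 9 of 10. In the last part, 62.9% of protein-free and 45.4% of occupied peaks were CpG-rich, whereas in the first part the shares were 85.7 and 91.7%. At promoters the shares were 83.0% (82.1 to 83.9%) and 82.3% (81.6 to 83.0%), a difference of 0.71 points (-0.46 to 1.86), and 7.56 points (6.26 to 8.87) within the parts of the list.

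The median ratio of observed to expected CpG was 0.75 (0.74 to 0.75) for protein-free and 0.75 (0.75 to 0.76) for occupied peaks. The median content of G and C was 63.5% (63.2 to 63.7%) and 61.4% (61.2 to 61.6%), and at promoters 64.5 and 61.7%, with the protein-free median higher in 10 of 10 parts of the list. The spread within the protein-free peaks was wide, with the middle 50% of CpG ratios between 0.63 and 0.84. The share of peaks without a protein was 45.7% (42.6 to 48.7%) at ratios from 0.2 to 0.4 and 39.4% (38.4 to 40.5%) from 0.6 to 0.8. At promoters alone these shares were 40.7% (36.7 to 44.8%) and 37.5% (36.5 to 38.6%), with overlapping intervals.

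**Figure D4:**
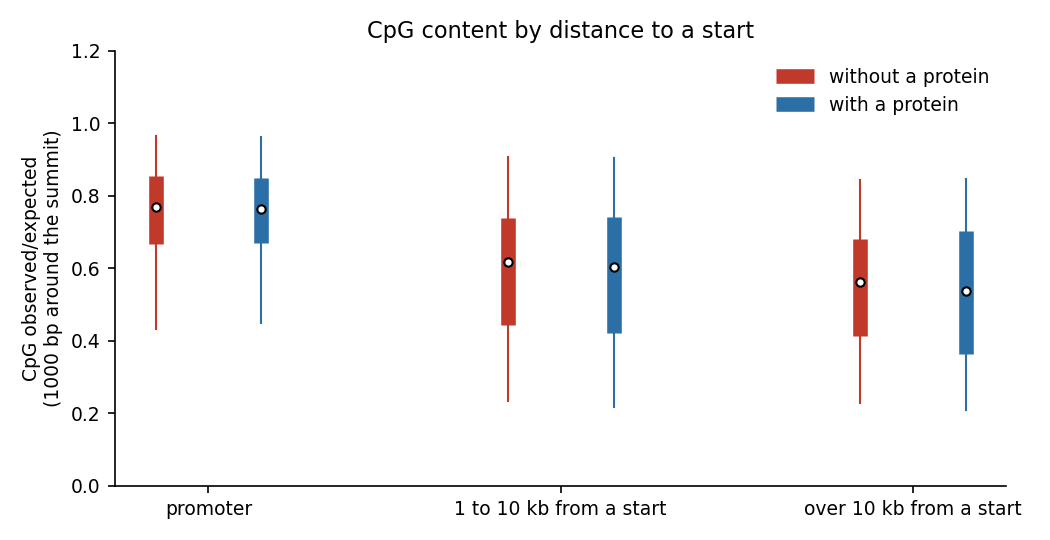
The vertical axis gives the ratio of observed to expected CpG in the 1000 bp around the summit, for peaks at promoters, 1 to 10 kb from a start and over 10 kb from a start. Circles are medians, thick bars the middle 50% of peaks and thin lines the 5th to 95th percentiles; the median of the protein-free peaks fell from 0.77 at promoters to 0.56 over 10 kb away, near that of the occupied peaks in each class.

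Short sequences were counted on both strands in the 300 bp from 250 bases before to 50 after the start, at coding promoters (5935 protein-free and 9899 occupied peaks). The unit was the peak, so a start with several H3K4me3 summits can enter more than once, also in both kinds of peak. The intervals take no account of such repeats, and the share over all coding promoters is not counted by peak. A match describes the letters and is not a bound site. GGGCGG, the GC box of Sp1 and related factors, was present at 78.7% of protein-free (77.6 to 79.7%) and 73.3% of occupied peaks (72.4 to 74.2%), against 52.1% of all 20162 coding promoters. It was more frequent among the protein-free peaks in 10 of 10 parts of the list, by 5.23 points (3.73 to 6.73). Their higher content of G and C, given above, goes the same way, and its part in this difference was not tested.

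The Runx sequence TGTGGT went the other way. It was present at 5.96% of protein-free (5.38 to 6.60%) and 8.93% of occupied peaks (8.38 to 9.51%), with 12.5% over all coding promoters. Within the parts of the list the difference was -3.51 points (-4.44 to -2.58), and it was lower among protein-free peaks in 10 of 10. The bases printed above for ZSCAN31 hold it. The ETS sequence CCGGAA was present at 19.3 and 28.5%, a difference of -9.24 points (-10.57 to -7.89) over all peaks and -3.84 points (-5.32 to -2.36) within the parts. The YY1 sequence AAGATGGC was present at 2.66 and 5.96%, the NRF1 consensus at 7.51 and 10.5%, the E-box CACGTG at 7.53 and 10.1%, CCAAT at 28.4 and 31.6%, the PU.1 sequence GAGGAA at 23.7 and 26.7% and the palindromic CGCG element at 0.39 and 0.82%. Each of these was less frequent among protein-free peaks over all peaks and in the weighted mean within the parts of the list. For AAGATGGC the difference shrank from -3.30 points over all peaks to -1.69 points (-2.36 to -1.02) within the parts. For the NRF1 consensus it shrank from -3.02 to -1.35 points (-2.36 to -0.34). TATAAA, at 3.45 and 3.65%, and the CRE sequence TGACGTCA, at 2.33 and 2.72%, had intervals of the difference that included 0 over all peaks, and within the parts TATAAA differed by -1.05 points (-1.74 to -0.36). GAGGAA and CCGGAA both hold GGAA but share no longer run, and no other pair in this set is nested.

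Away from starts, 477 protein-free peaks stood over 10000 bp from any annotated start, 6.0% (5.49 to 6.54%), against 362 or 3.10% of occupied peaks (2.79 to 3.43%). The difference was 2.90 points (2.30 to 3.52), and -0.32 points (-0.98 to 0.35) within the parts of the list. The share of H3K4me3 peaks that were protein-free was 37.8% (36.8 to 38.7%) within 250 bp of a start, 44.5% from 500 to 1000 bp, 57.1% (52.5 to 61.6%) from 1 to 2 kb and 56.6% (53.0 to 60.1%) from 10 to 50 kb. The share was lowest within 500 bp of a start, higher from 500 to 1000 bp and higher again in each bin beyond 1 kb. These bins are over all peaks and were not set beside peaks at the same list positions.

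These far peaks had a median distance of 18784 bp (17799 to 19862 bp) to a start, and 37.3% (33.0 to 41.8%) lay inside a gene body. Their content of G and C had a median of 54.9% and their CpG ratio one of 0.56 (0.54 to 0.58). CpG-rich sequence was found at 34.4% (30.1 to 38.8%) of them, and at 38.7% of the occupied far peaks, a difference of -4.29 points (-10.86 to 2.25), and -0.48 points (-6.93 to 5.98) within the parts of the list. Another H3K4me3 summit lay within 2000 bp of 12.6% (9.74 to 15.9%), against 23.5% (19.2 to 28.2%) of occupied far peaks, a difference of -10.90 points (-16.25 to -5.67), and -10.20 points (-15.64 to -4.75) within the parts of the list. A protein summit stood within 5000 bp of 9.43% of the protein-free far peaks, and 33.1% had none within 50000 bp. Their peak numbers were late, with a median of 16283.

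The far peaks with the lowest numbers were 3828, upstream of the tubulin gene TUBB4A, and 6284, upstream of the sialic acid synthase gene NANS. Their 100 bp windows are printed as a CpG-bearing and a CpG-poor example, with CG in capitals, on the plus strand of GRCh37, at chr19:6516685-6516784 and chr9:100808136-100808235.
peak 3828: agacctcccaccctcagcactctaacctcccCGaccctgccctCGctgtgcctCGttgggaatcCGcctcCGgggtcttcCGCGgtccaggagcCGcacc
peak 6284: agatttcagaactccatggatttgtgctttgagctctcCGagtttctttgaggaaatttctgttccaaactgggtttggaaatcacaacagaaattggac
Peak 3828 stood 13876 bp from the start of TUBB4A with a CpG ratio of 0.58, and peak 6284 stood 10828 bp from the start of NANS with 0.19. Both lie between genes. The others of the first 10 were nearest to ADPRHL1, CCN6, NUMBL, UBE2H, RNU1-58P and GPX5, between genes, or in introns of PTPRN2 and SH3PXD2A. The PTPRN2 peak, in a gene for a phosphatase-like protein of secretory vesicles, stood 98409 bp from any start and 271309 bp from any protein, with another H3K4me3 summit 1047 bp away. Furthest from a start were peak 19495, at 510064 bp, peak 18475, at 307270 bp, and peak 16927 in an intron of ZNF804A, at 136651 bp. Peak 18475 had a p300 summit 1038 bp away, so it barely met the limit.

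A few far peaks held a sequence that occurs in transfer RNA genes, which RNA polymerase III transcribes and whose starts are not in the annotation used here. The B box, an internal promoter element of these genes, was searched by its consensus of 11 bases, with any base allowed at 1 of them, on both strands within 500 bp of the summit, after the far peaks had been seen. It was found at 8 of 477 protein-free far peaks, 1.68% (0.73 to 3.28%), 5 of 362 occupied far peaks, 1.38% (0.45 to 3.19%), 24 of 6612 protein-free promoter peaks, 0.36% (0.23 to 0.54%), and 45 of 10618 occupied promoter peaks, 0.42% (0.31 to 0.57%). Peaks from 1000 to 10000 bp from a start held it at 16 of 865 protein-free, 1.85% (1.06 to 2.99%), and 11 of 697 occupied, 1.58% (0.79 to 2.81%), with intervals that overlap those of the far peaks. The protein-free and occupied shares had overlapping intervals in each class. Examples from peaks 8948 and 9887 are printed with the B box in capitals, on the minus strand of GRCh37, at chr6:28510892-28510974 and chr14:21131352-21131434.
peak 8948: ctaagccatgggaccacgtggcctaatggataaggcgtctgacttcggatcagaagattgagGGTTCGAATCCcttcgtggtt
peak 9887: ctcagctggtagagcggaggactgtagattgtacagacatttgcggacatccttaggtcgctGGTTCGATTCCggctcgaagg
Peak 8948 was 51438 bp from any protein and had another H3K4me3 summit 916 bp away. Peak 9887 was 17832 bp from any protein.

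Neighbouring H3K4me3 summits often belong to the same marked stretch. Another H3K4me3 summit lay within 2000 bp of 45.4% (44.3 to 46.5%) of protein-free and 46.4% (45.5 to 47.4%) of occupied peaks, a difference of -1.06 points (-2.47 to 0.36). Within the parts of the list the difference was -8.16 points (-9.70 to -6.62), although in the first 3 parts the protein-free share was the higher. When a protein-free peak had such a neighbour, the nearest one was occupied in 421 of 3610 cases, 11.7% (10.6 to 12.8%). Over all H3K4me3 peaks, 11677 of 19631 were occupied. The 1000 bp limits of summits this close overlap, so likeness between neighbours is partly set by the rule and is given as a description only. After chaining summits within 2000 bp into domains, 39.3% of domains (38.5 to 40.1%) held no summit with a protein.

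Some genes carried several protein-free summits between 5000 bp before their start and their end. These counts were not scaled to the length of the gene, and summits at the starts of other genes inside the same span were not set apart. ENSG00000250349, a locus annotated from 37208583 to 38546928 on chromosome X, held 7 among 8 H3K4me3 summits. FAM171A2 on chromosome 17 and ZFHX3, a homeobox transcription factor gene on chromosome 16, held 6 of 6. CHD9, a chromatin remodeller gene on chromosome 16, held 6 of 8. CHD7, another remodeller gene, DGKH, a diacylglycerol kinase gene, DLGAP1 and ENSG00000254553 held 5 of 5.

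Protein-free peaks were unevenly spread over the chromosomes. On chromosome X 424 of 671 H3K4me3 peaks were protein-free, 63.2% (59.4 to 66.8%), against 49.2% for all peaks at the same list positions. Chromosome 16 followed with 53.2% (49.8 to 56.6%) against 43.8%, and chromosome 13 with 50.5% (45.4 to 55.7%) against 43.3%. The lowest shares were 29.2% (26.1 to 32.5%) on chromosome 10, with 36.7% at the same list positions, 32.8% on chromosome 11, with 39.6%, and 33.5% on chromosome 19, with 39.3%. Chromosome 21, at 35.4% (29.2 to 41.9%) against 42.4%, and chromosome 1, at 37.4% (35.2 to 39.6%) against 40.0%, also stood below. Chromosome 9, at 45.8% (42.3 to 49.3%) against 41.7%, stood above. Up to peak number 9816, 53.3% of peaks on chromosome X and 22.9% of all peaks were protein-free. The number of copies of each chromosome in the line was not analysed here, and its part in these shares was not tested.

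**Figure D5:**
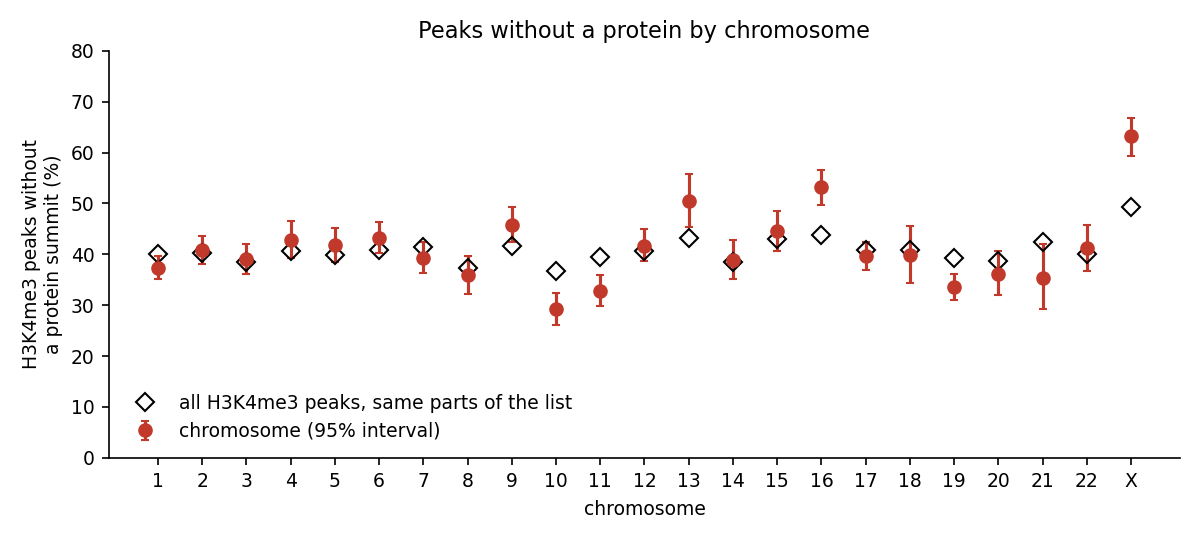
The horizontal axis gives the chromosome and the vertical axis the share of its H3K4me3 peaks without a protein summit in percent, with exact 95% intervals. Diamonds give the share over all H3K4me3 peaks at the same parts of the list. Chromosomes X, 16, 13 and 9 stand above their diamonds by more than the interval, and 10, 11, 19, 21 and 1 below.

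Single stretches of a chromosome ranged more widely, on fewer peaks each. Among 146 stretches of 10 Mb with at least 50 H3K4me3 peaks, the highest shares were at 10 to 20 Mb of chromosome 16, 75.0% (63.0 to 84.7%) against 50.6% for the same list positions, and at 0 to 10 Mb of the same chromosome, 73.4% (66.9 to 79.3%) against 48.7%. On chromosome 17 the share was 69.7% at 0 to 10 Mb and 71.4% at 10 to 20 Mb, and 14.7% (10.3 to 20.2%) at 70 to 80 Mb, against 35.4% for the same list positions. The lowest share was at 140 to 150 Mb of chromosome 8, 12.1% (6.93 to 19.2%) against 31.0%.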

How the data were processed

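ChIP-seq libraries of Kasumi-1 cells were mapped to GRCh37 (hg19). The submitters' processing notes name CASAVA 1.6, Bowtie 0.12.8 and MACS2 2.0.10.20131216. The authors pooled the replicates of each antibody, called peaks with a p threshold stricter than the default of the caller, and deposited 5 lists of summit positions, each window 100 bp wide, with a number and no score or count. The files thus give no depth, and the read totals that the study lists per library were not used here. The deposited peak names carry prefixes that differ from the antibody in some lists, and the sample records were followed.

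Distances were taken between window centres. Starts came from GENCODE release 44 lifted to GRCh37 (254376 transcripts of 64449 genes), and sequence from GRCh37. A promoter was within 1000 bp of a start and a far peak over 10000 bp away. Shares have exact Clopper-Pearson, differences Newcombe and medians order-statistic 95% intervals. Differences within the 10 parts of the list were weighted by the Mantel-Haenszel method.

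The members and the 28 gene lists were chosen with earlier results of these data known. Named genes were the 10 lowest-numbered protein-free peaks at coding promoters and far from starts, the 3 on either side of the limit, up to 4 per gene list by lowest number, the 5 furthest from a protein and the genes with most such peaks. The division of the list into parts, the B box, the 10 Mb stretches, the ZSCAN31 example, the peaks furthest from a start and the histone and lineage genes beyond the first 4 were chosen after values were seen. On simulated data the distance step assigned 5000 of 5000 peaks correctly, and 468 of 500 intervals of a difference held the true value. Python 3.11.15, pandas 2.3.3, SciPy 1.17.1, statsmodels 0.14.6, pysam 0.24.0 and samtools 1.23.1 were used. Libraries for H3K27me3 and for input DNA were not analysed here, and a few named genes and promoter sequences are not reported here.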

Additional observations from a re-analysis of the deposited data

How the results depend on the processing

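The share of H3K4me3 peaks without a protein summit, 40.5%, was 52.3, 36.8 and 33.0% with protein distances of 500, 2000 and 5000 bp. It was 42.4% without the AML1 list, 46.5% without AML1-ETO, 41.3% without N-CoR and 60.7% without p300. It was 39.3% over domains, 22.9% among peak numbers up to 9816 and 39.7% without chromosome X. The promoter difference kept its sign and an interval clear of 0 under each alternative but the weighting within the 10 parts of the list, between -12.10 points (peaks with no other H3K4me3 summit within 2000 bp) and -1.56 points (peak numbers up to 9816), and reversed to 0.89 points, with an interval that included 0, within the 10 parts of the list, an alternative added after the data were seen. The far difference stayed between 1.28 and 6.25 points and reversed to -0.32 (-0.98 to 0.35), an interval that included 0, within those parts. The CpG-rich difference reversed to 1.24 points with 250 bp to either side of the summit, to 0.71 (-0.71 to 2.13) with a ratio above 0.75 and G and C above 55%, to 0.71 (-0.46 to 1.86) at promoters only, both with intervals that included 0, and to 7.39 within those parts. It was -7.45 points (-9.22 to -5.69) for peaks with no other H3K4me3 summit within 2000 bp and -4.21 with 1000 bp to either side. At -1.06 its interval included 0 with a protein distance of 5000 bp. Within those parts the downstream difference reversed to 6.50 points and the lncRNA difference to -0.85. The median distance to a start was 311 bp with coding starts only, 249 bp with a protein distance of 5000 bp and 247 bp for peaks with no other summit within 2000 bp. The causes of these shifts were not tested. No paired analysis was possible because each antibody has a single pooled list. For the same reason no replicate could be left out, and without counts per peak no result could be set against depth.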
